A study of Mus musculus with 18 samples.

Results

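The 9 genes described here belong to the astrocyte and oligodendrocyte lineages and were followed across sorted cells of 3 mouse embryonic stem cell lines. They were found by symbol in a table of 31441 genes, written there in capitals as OLIG1, OLIG2, PDGFRA, AQP4, GFAP, S100B, NFIA and MT3, with ALDH1L1 under its older symbol FTHFD. The mouse spelling (Olig1 and so on) is used from here on. Of these 9 genes, 7 were above background on at least 3 of 18 arrays and were tested, among 12651 genes in all. Olig1 and Aqp4 were picked because they were lower in cells positive for the Pitx3 reporter, so every value of theirs that involves those cells is given as a description, with no test.

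All cells came from J1 embryonic stem cells that carried 1 of 3 bacterial artificial chromosome reporters, and all were directed towards midbrain dopamine neurons. Cells were sorted at day 14 to 15 by fluorescence. The 6 groups were Hes5::GFP positive and negative, Nurr1::GFP positive and negative, and Pitx3::YFP positive and negative cells, with 3 Illumina bead arrays of total RNA each. Hes5 is a Notch target of neural progenitors, Nurr1 (gene symbol Nr4a2) marks dopamine precursors and neurons, and Pitx3 marks postmitotic dopamine neurons. Each reporter was in a line of its own, so in any comparison between lines the line and the group cannot be told apart. Nothing in the labels says whether the replicates were separate differentiations, so the p-values reflect how these arrays vary, which may be technical. Each replicate number gave a positive and a negative array that deviated together, so sorts are also given in a paired fit.

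Neural progenitors make neurons first and glia later. Olig1 and Olig2 are basic helix-loop-helix factors that specify oligodendrocyte precursors, which carry Pdgfra, a receptor for platelet-derived growth factor. Nfia is a nuclear factor that starts the switch to astrocyte production. Aldh1l1 is a folate enzyme, Aqp4 a water channel, Gfap an intermediate filament and S100b a calcium-binding protein of astrocytes. Mt3 is a metallothionein of the brain that binds zinc and copper. In bulk RNA, fewer cells of a type and less RNA per cell cannot be told apart.

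The arrays were alike in depth, with a median probe intensity of 40.6 to 60.2 and 33.5% to 37.4% of probes detected. Reporter RNA separated the fractions in every line, at 9.97 to 11.12 in Pitx3 positive and 6.07 to 6.52 in Pitx3 negative cells on the normalized log2 scale. Hes5 negative replicate 2 has labels that contradict each other, one of them calling it positive. Its reporter RNA read 11.12, against 9.51 and 8.48 in the other two Hes5 negative arrays. It was kept as negative, and the lineage genes' Hes5 sort differences that it moved most are also given without it. Markers of microglia, the immune cells of the brain, were above background on 0 of 18 arrays for 7 of 7 genes.

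The promoters of Nfia, Aldh1l1 and Mt3 are shown because these 3 genes moved together and passed some of the tests given further on. All 3 passed in the paired fit of the Pitx3 sort and in Pitx3 positive against Hes5 positive cells. None of them passed in the Pitx3 sort without pairs. Each promoter is the 250 bases before a transcription start from RefSeq (mouse build GRCm38.p6), and 7 of 9 genes had an entry, all but Olig1 and Aqp4. The start used lay at the first base of the annotated gene for Mt3, 25 bases inside it for Aldh1l1 and 3877 bases inside it for Nfia, whose window therefore lies before an internal start. Among the other genes searched it lay 929 bases inside Pdgfra and 206 inside Mt1. The windows are chr4:97581693-97581942 for Nfia, chr6:90550543-90550792 for Aldh1l1 and chr8:94152357-94152606 for Mt3, all on the plus strand. Capitals mark the core that SOX factors bind, ACAAAG or ACAATG on either strand, a motif chosen after values of Sox genes had been seen.
Nfia: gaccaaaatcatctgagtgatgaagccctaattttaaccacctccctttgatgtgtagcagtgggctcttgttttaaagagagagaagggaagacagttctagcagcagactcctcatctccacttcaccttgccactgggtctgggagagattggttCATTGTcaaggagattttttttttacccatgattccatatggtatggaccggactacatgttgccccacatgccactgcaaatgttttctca
Aldh1l1: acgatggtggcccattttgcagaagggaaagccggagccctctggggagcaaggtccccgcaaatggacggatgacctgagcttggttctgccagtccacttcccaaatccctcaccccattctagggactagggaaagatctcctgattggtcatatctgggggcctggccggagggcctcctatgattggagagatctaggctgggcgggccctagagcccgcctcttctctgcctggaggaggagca
Mt3: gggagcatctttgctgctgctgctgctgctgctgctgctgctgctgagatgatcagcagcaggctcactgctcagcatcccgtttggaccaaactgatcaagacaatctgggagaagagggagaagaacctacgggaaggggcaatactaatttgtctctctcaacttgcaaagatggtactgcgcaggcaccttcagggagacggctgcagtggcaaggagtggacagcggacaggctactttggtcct
The SOX core was present 1 time in the window of Nfia and 1 time in that of Olig2, and 0 times in the other 5 windows. Of 32851 mouse promoter windows, 25.2% held it. The half-site of NFI factors, TTGGC, was found 2 times for Olig2 and 3 times for S100b and in none of the other 5, against 41.5% of all windows. The N-box of Hes repressors, CACNAG, was found 1 time for Gfap and in none of the other 6, against 36.7% of all windows. The metal response element core, TGCACNC or TGCGCNC, was found 0 times for Mt3, 1 time for its relative Mt1 and 3 times for Mt2, against 21.4% of all windows. Both strands were searched, and these letters are no evidence of binding or its absence.

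**Figure D1:**
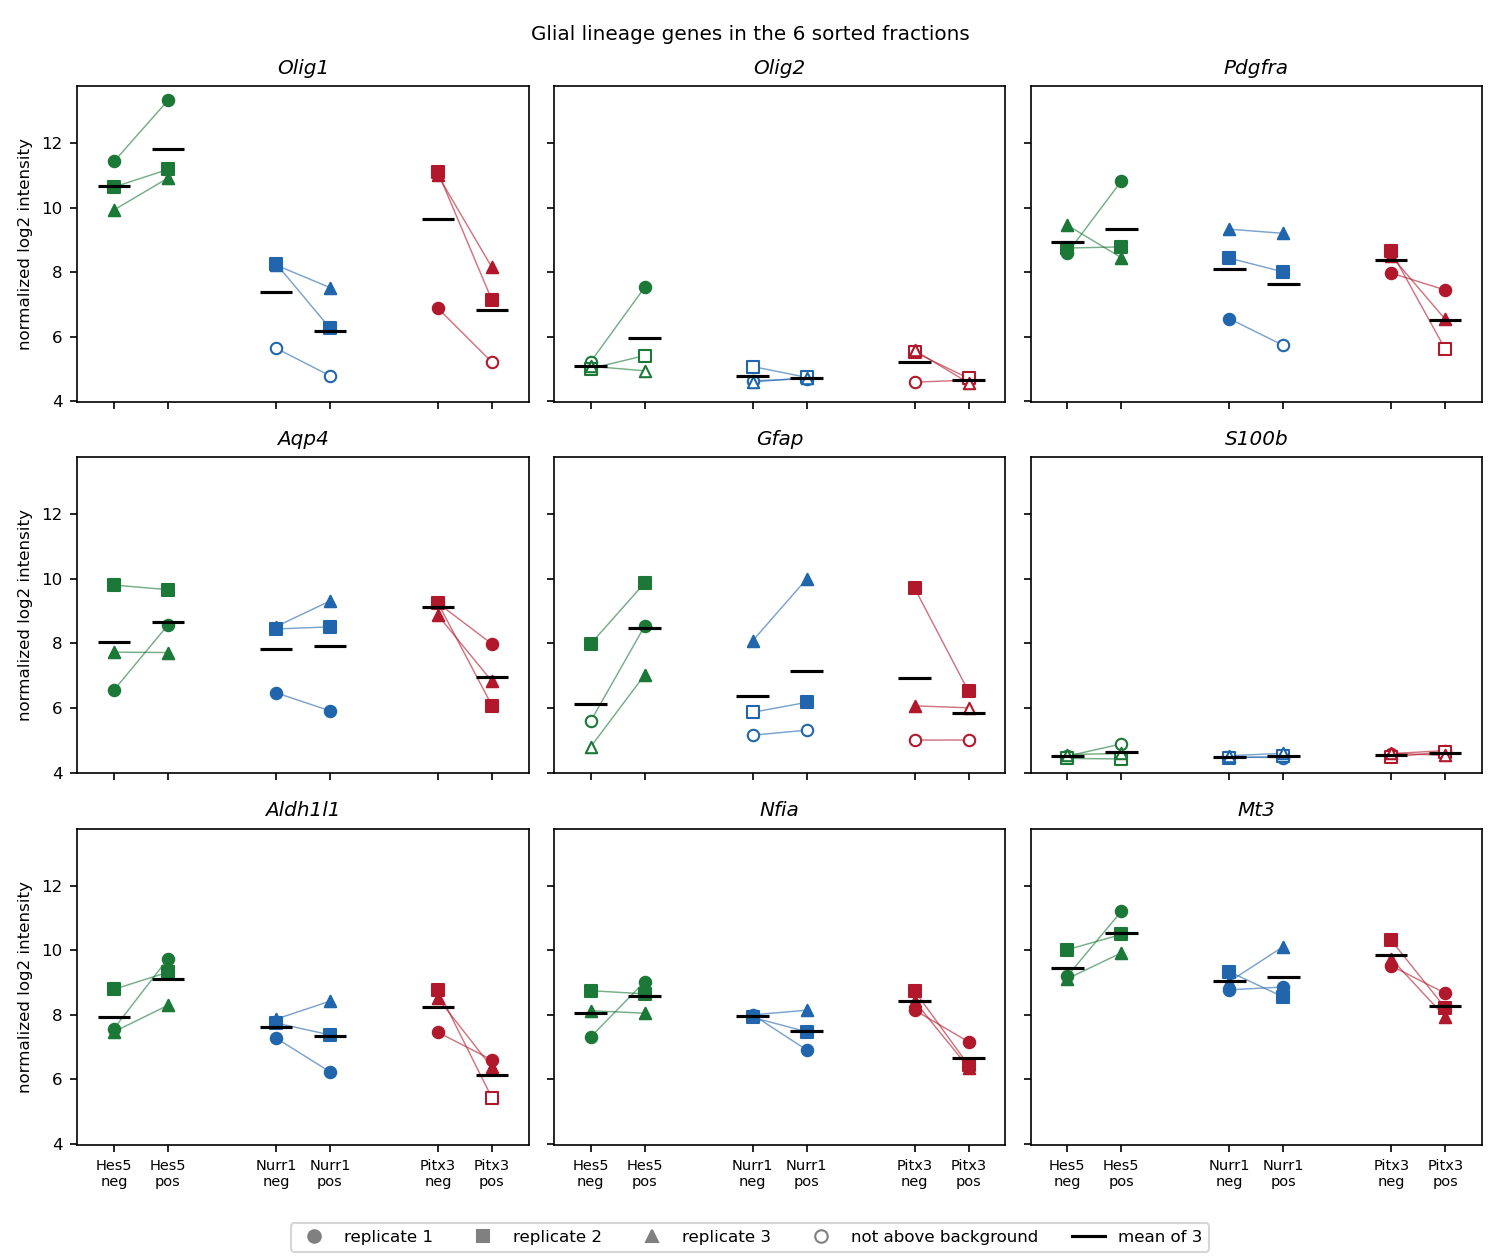
Normalized log2 intensity of the 9 genes (y axis) in the negative and positive cells of each line (x axis). Symbols are the 3 replicates, hollow where the array was not above background, thin lines join arrays of one number and bars are means; Olig1 runs from 4.79 to 13.32, while S100b stays below background on all 18 arrays.

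Olig1 had the widest range of the 9 genes. It read 13.32, 11.18 and 10.92 in Hes5 positive and 11.43, 10.64 and 9.93 in Hes5 negative cells, in the order of replicates 1 to 3. It read 5.64, 8.27 and 8.22 in Nurr1 negative and 4.79, 6.26 and 7.52 in Nurr1 positive cells. Every Hes5 array was above every Nurr1 array. In the Pitx3 line it read 6.88, 11.10 and 10.999 in negative and 5.21, 7.13 and 8.15 in positive cells. Negative replicates 2 and 3 reached the Hes5 levels, while negative replicate 1, at 6.88, lay within the range of the positive cells. Olig1 was not above background on 3 arrays, replicate 1 of the Nurr1 positive, Nurr1 negative and Pitx3 positive cells. By group mean the order was Hes5 positive at 11.81 ± 1.32 (SD, n = 3), Hes5 negative at 10.67 ± 0.75, Pitx3 negative at 9.66 ± 2.41, Nurr1 negative at 7.38 ± 1.501, Pitx3 positive at 6.83 ± 1.49 and Nurr1 positive at 6.19 ± 1.37. Neighbours in this order overlapped throughout.

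Olig2, the partner of Olig1, was above background on 1 of 18 arrays. That array was Hes5 positive replicate 1, at 7.53, which was also the highest for Olig1. S100b was above background on 0 of 18 arrays. The other 17 arrays of Olig2 read 4.57 to 5.57. Both genes were too dim for the filter, so no difference is drawn from them. Each was read by a single probe.

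Pdgfra read 10.82, 8.78 and 8.45 in Hes5 positive and 8.59, 8.75 and 9.45 in Hes5 negative cells. It read 5.73, 8.01 and 9.20 in Nurr1 positive and 6.56, 8.43 and 9.33 in Nurr1 negative cells. In the Pitx3 line it read 7.45, 5.61 and 6.54 in positive and 7.97, 8.64 and 8.499 in negative cells. Only the fractions of the Pitx3 line did not overlap. By group mean the order was Hes5 positive (9.35 ± 1.28), Hes5 negative (8.93 ± 0.46), Pitx3 negative (8.37 ± 0.35), Nurr1 negative (8.11 ± 1.42), Nurr1 positive (7.65 ± 1.76) and Pitx3 positive (6.53 ± 0.92), each as SD with n = 3. Neighbours in this order overlapped.

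Aqp4 was above background on 18 of 18 arrays. It read 7.98, 6.07 and 6.83 in Pitx3 positive and 9.25, 9.25 and 8.87 in Pitx3 negative cells, with no overlap. In Hes5 cells it read 8.57, 9.67 and 7.72 in the positive and 6.56, 9.81 and 7.73 in the negative fraction. In Nurr1 cells it read 5.91, 8.51 and 9.31 in the positive and 6.47, 8.45 and 8.52 in the negative fraction. Both of these pairs of fractions overlapped widely. Unlike the other tested genes, Aqp4 had its highest group mean in Pitx3 negative cells, at 9.12 ± 0.22 (SD, n = 3), which overlapped with Hes5 positive cells at 8.65 ± 0.98.

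Gfap was above background on 10 of 18 arrays. It read 8.54, 9.88 and 7.02 in Hes5 positive and 5.59, 7.99 and 4.79 in Hes5 negative cells, and it was higher in the positive cells of 3 of 3 pairs. Nurr1 replicate 3 stood apart, at 9.997 in positive and 8.08 in negative cells, against 5.16 to 6.17 in the other Nurr1 arrays. Among Pitx3 cells only negative replicate 2 was high, at 9.71, and the others read 5.01 to 6.51. Its group means ran from 8.48 ± 1.43 (SD, n = 3) in Hes5 positive to 5.84 ± 0.77 in Pitx3 positive cells, and neighbours in that order overlapped.

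Aldh1l1 read 9.74, 9.32 and 8.29 in Hes5 positive and 7.57, 8.79 and 7.47 in Hes5 negative cells. It read 6.60, 5.42 and 6.37 in Pitx3 positive and 7.45, 8.77 and 8.51 in Pitx3 negative cells. It read 6.23, 7.37 and 8.42 in Nurr1 positive and 7.28, 7.74 and 7.86 in Nurr1 negative cells. The Pitx3 fractions did not overlap, while those of the Hes5 and Nurr1 lines did. Its group means ran from 9.12 ± 0.74 (SD, n = 3) in Hes5 positive to 6.13 ± 0.62 in Pitx3 positive cells. Its 3 probes above background gave Pitx3 sort differences of -2.11, -1.85 and -2.07, and its other 2 probes were above background on 0 arrays.

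Nfia and Mt3 were above background on 18 of 18 arrays. Nfia read 7.16, 6.43 and 6.36 in Pitx3 positive and 8.14, 8.73 and 8.42 in Pitx3 negative cells. Mt3 read 8.67, 8.21 and 7.93 in Pitx3 positive and 9.51, 10.30 and 9.73 in Pitx3 negative cells. Neither gene overlapped between these fractions. In Hes5 cells Nfia read 9.02, 8.65 and 8.05 in the positive and 7.31, 8.74 and 8.12 in the negative fraction. Mt3 read 11.20, 10.49 and 9.92 in Hes5 positive and 9.20, 10.02 and 9.12 in Hes5 negative cells. Both genes were highest by mean in Hes5 positive cells, and both Hes5 fractions overlapped. In Nurr1 cells Nfia read 6.91, 7.47 and 8.14 in the positive and 8.001, 7.91 and 7.996 in the negative fraction. Mt3 read 8.86, 8.55 and 10.11 in Nurr1 positive and 8.77, 9.33 and 9.02 in Nurr1 negative cells. Mt3 in Pitx3 positive cells lay below all Nurr1 negative arrays, the only neighbours in its order of group means that did not overlap.

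In the Pitx3 sort, the 5 genes open to a test had a mean difference below 0, with a median of -1.78 log2 against 0.01 over all genes. Aldh1l1, Nfia and Mt3 fell in the paired fit, 3 of the 5 genes open to a test, and Pdgfra and Gfap did not pass. Genes lower in the paired fit made up 8.51% of all genes tested. Of the same 5 genes, 4 were lower in 3 of 3 pairs and without overlap, all but Gfap, against 30.7% and 7.56% of all genes.

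Aldh1l1 fell by 2.11 log2 (SE 0.48, adjusted p = 0.0243 in limma's paired fit and 0.0987 without pairs). Nfia fell by 1.78 (SE 0.39, adjusted p = 0.0225 paired and 0.053 without). Mt3 fell by 1.58 (SE 0.39, adjusted p = 0.0314 paired and 0.0971 without). Without pairs limma called 0 of the 5 genes, against 0.0711% of all genes lower, and 4 of them had an unadjusted p under 0.05. Here and below, counts at an unadjusted p are a description, as the share of all genes at that cut is not given. Pdgfra differed by -1.84 (SE 0.58, adjusted p = 0.0639 paired) and Gfap by -1.09 (SE 0.59, adjusted p = 0.234 paired). As a description, Olig1 differed by -2.83 (pairs -1.67, -3.97 and -2.85) and Aqp4 by -2.16 (pairs -1.27, -3.18 and -2.05). Pair 2 had the largest fall for all 7 genes, as Aldh1l1 shows with pairs of -0.85, -3.34 and -2.14. For Gfap it was the only pair that differed, at -3.20 against 0.0013 and -0.06. The 3 calls were lost without pair 2 or pair 3 of the Pitx3 line, and no other pair ended them. Pdgfra passed without Hes5 pair 1 (adjusted p = 0.0216) or Pitx3 pair 1 (0.0402). Without pairs, Nfia passed in 5 of the 18 fits that leave out 1 array (lowest adjusted p = 0.0109), and Aldh1l1 (0.0364) and Mt3 (0.0322) passed in 1, without Pitx3 positive replicate 1. Without pair 2 the paired adjusted p was 0.166 for Aldh1l1, 0.159 for Nfia and 0.197 for Mt3, and without pair 3 it was 0.13, 0.135 and 0.166.

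**Figure D2:**
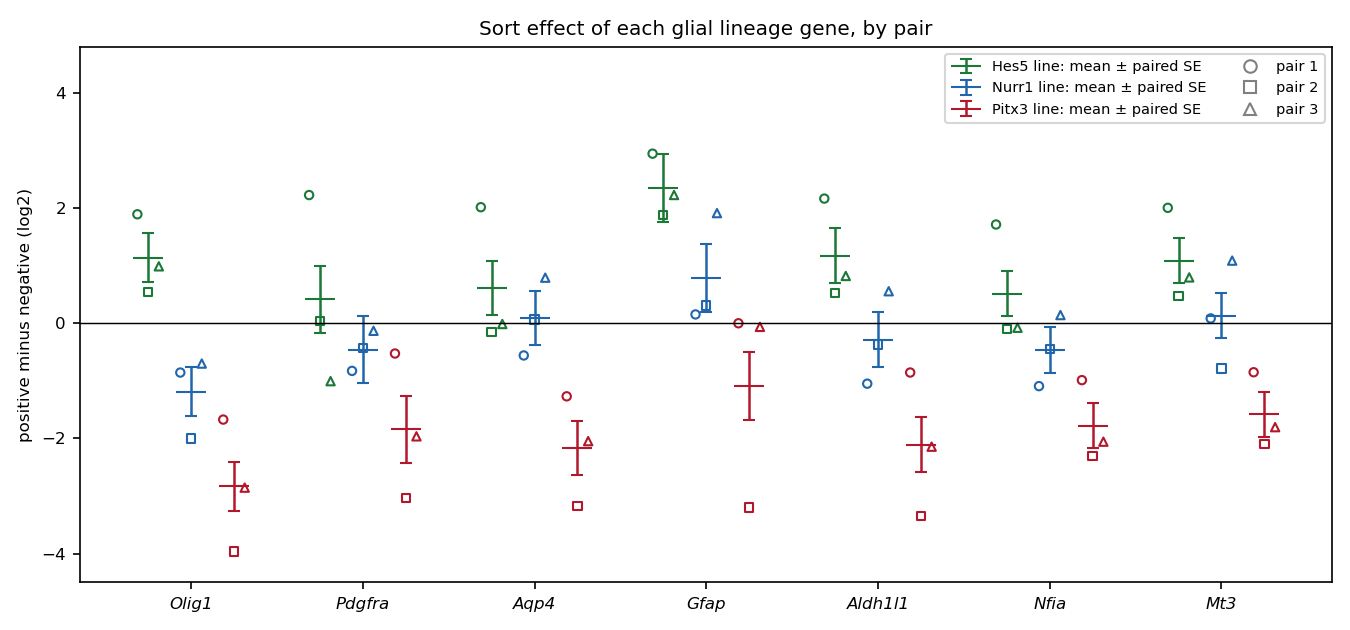
Positive minus negative cells in log2 (y axis) for the 7 tested genes (x axis) in the Hes5, Nurr1 and Pitx3 lines. Open symbols are the 3 pairs and bars the mean with its paired SE; in the Pitx3 line Aldh1l1, Nfia and Mt3 lie below 0 in 3 of 3 pairs, with means of -2.11, -1.78 and -1.58.

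Further genes of these lineages, taken from lists, were read in the same sort. In its paired fit 8.51% of all genes fell and 6.09% rose. Of 24 further astrocyte genes 12 were tested, 7 fell and 0 rose in the paired fit, with a median of -1.64, also with the 2 genes that were dim in Pitx3 positive cells at their bound. They included Slc1a3, a glutamate transporter (-2.46), Sox9, a factor of the glial switch (-2.34), Fgfr3, a growth factor receptor (-2.20), and Gja1, a gap junction protein (-2.01). Slc1a3 is also on the radial glia list read further on. The untested astrocyte genes Gjb6, Glul, Mlc1, Hepacam, Slc7a10, Gpc5 and Kcnj10 were not above background on any array of any group. Ntsr2, also untested, was above background on 1 Pitx3 positive array only. In the authors' deposited table Slc1a2 read 6.15 to 6.58 in Pitx3 positive and 5.47 to 6.09 in Pitx3 negative cells, without overlap. Nfib lay the other way without overlap, at 6.14 to 6.85 and 7.23 to 7.98. Slc4a4 (5.31 to 5.98 and 5.84 to 6.25) and Cd44 (5.40 to 7.22 and 6.65 to 7.65) overlapped. These log2 values are not normalized between arrays and were not tested. Without pairs limma called 0 of the 12, and 8 had an unadjusted p under 0.05. Without pair 2, or without pair 3, of the Pitx3 line, 0 astrocyte genes were called, and without Hes5 pair 3 or Nurr1 pair 2 the count was 4. The summed intensity of the 12 genes was 11.3 to 13.2 log2 in Pitx3 positive and 14.1 to 14.4 in Pitx3 negative cells.

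Of 25 further oligodendrocyte lineage genes 16 were tested, and 5 fell and 0 rose in the paired fit, with a median of -1.10, or -0.60 with 6 dim genes at their bound. The shares of all genes that fell and rose were again 8.51% and 6.09%. Nkx2-2, a homeobox factor of ventral progenitors and oligodendrocyte precursors, fell by 2.70 (adjusted p = 0.0211 without pairs and 0.00641 paired). Sox10, a factor of the oligodendrocyte lineage, fell by 2.21 (adjusted p = 0.048 paired). Nkx6-2 and Ptprz1 fell by 1.34 and 1.33, and the fifth gene, Sox8, was not above background on any Pitx3 positive array and was at least 1.68-fold lower. Nkx2-2 was at 7.79 ± 0.90 (SD, n = 3) in Pitx3 positive and 10.49 ± 0.46 in Pitx3 negative cells. Sox10 was at 5.84 ± 1.04 and 8.04 ± 2.67, and overlapped. Named after their values were seen, the myelin genes Mag, Cnp and Cldn11 differed by 0.27, -1.04 and -1.06 and did not pass. Mbp, a myelin protein that was tied to no probe, is listed in the authors' deposited table at a log2 value of 7.45 to 7.78 in Pitx3 positive and 7.09 to 8.59 in Pitx3 negative cells. The count of 5 became 0 without pair 2 or pair 3 of the Pitx3 line. Pairs of other lines enter through the shared spread, and it became 1 without Hes5 pair 3 or Nurr1 pair 2, and 3 and 2 without Nurr1 pairs 1 and 3.

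Relatives of Mt3 and S100b were read beside them in the Pitx3 sort, where 8.51% of all genes fell in the paired fit. Of 9 tested metallothionein and S100 genes 4 fell in the paired fit, all of the S100 family, of which S100a1 and S100a11 fell by 1.78 and 1.70. Without pair 2 or pair 3 of the Pitx3 line 0 of them passed, and without Hes5 pair 2 or Nurr1 pair 2 or 3 the count was 2. Named after its value was seen, Mt1 differed by -1.72 (adjusted p = 0.0643 paired) and did not pass, and Mt2 was not above background on any Pitx3 positive array. Of 8 tested genes on a list of neural progenitor factors, Gata2 and Irx3 fell by 2.81 and 0.78. Gata2 is also on the serotonin list read further on. Neurog2, a proneural factor, rose by 1.21, against 6.09% of all genes higher in this fit. Without pair 2 or pair 3 of the Pitx3 line none of the 8 passed. Without Nurr1 pair 2 or 3 only 1 fell, and Neurog2 was kept only without Hes5 pair 1 or Hes5 pair 3.

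**Figure D3:**
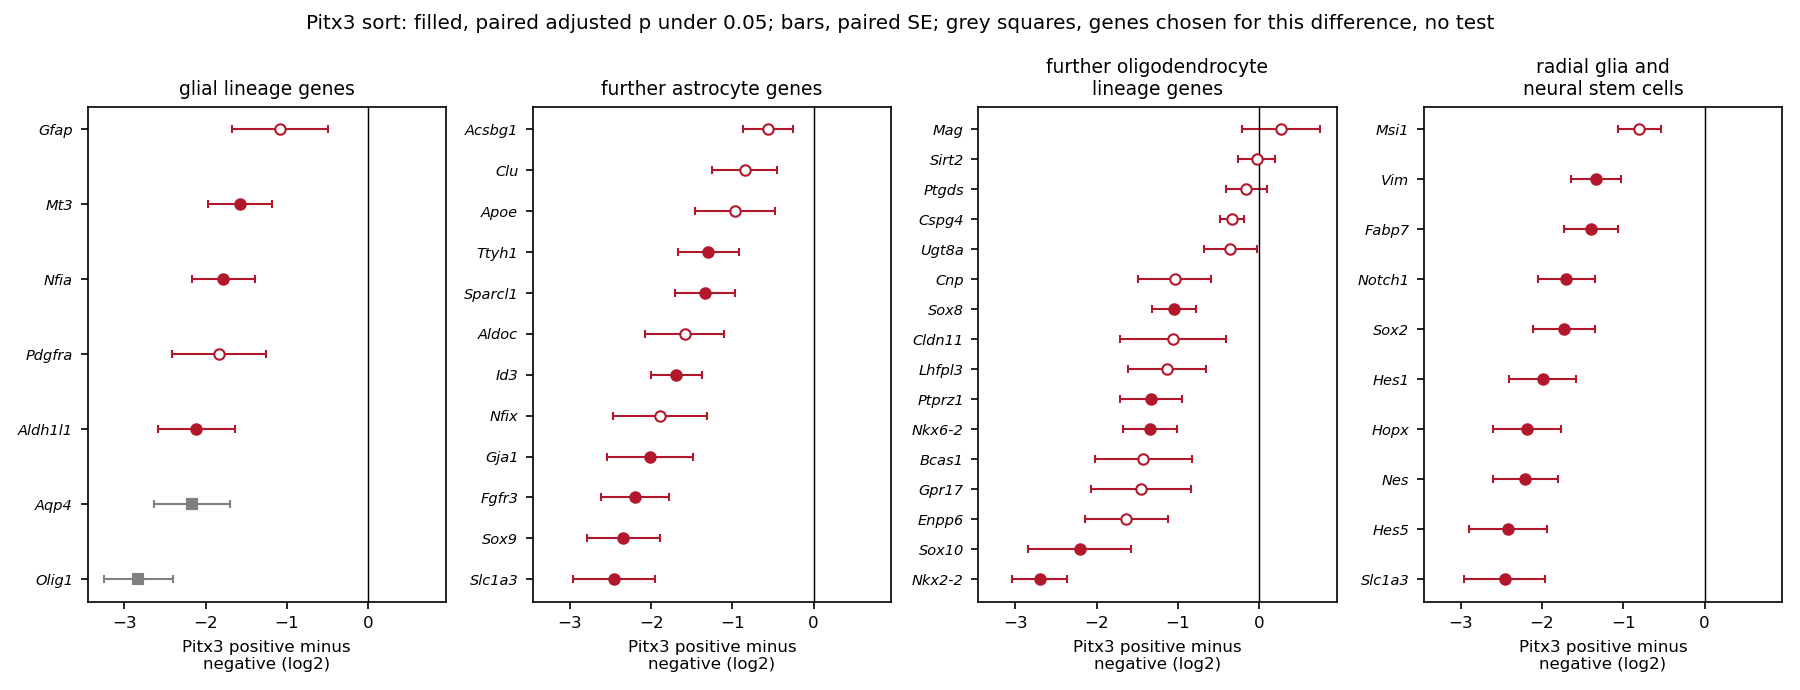
Pitx3 positive minus negative cells in log2 (x axis) for the tested genes of 4 lists (y axis), with paired SE. Filled points passed the paired test, grey squares are Olig1 and Aqp4, which were chosen for this difference; 7 of 12 astrocyte, 5 of 16 oligodendrocyte lineage and 9 of 10 radial glia genes are filled. Of all genes, 8.51% were lower in this test.

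Other lists moved in the same sort. Of 10 tested genes of radial glia and neural stem cells 9 fell in the paired fit, and of 10 cell cycle genes 8 fell, against 8.51% of all genes. The log2 of summed radial glia intensity was 11.5 to 13.8 in Pitx3 positive and 14.4 to 14.7 in Pitx3 negative cells. The summed cell cycle genes were 8.79 to 13.1 and 12.1 to 13.8. Pitx3 positive replicate 2 was the lowest of its group for both sums. Of 9 serotonin neuron genes 8 fell and 1 rose, and of 11 dopamine neuron genes 9 rose, against 6.09% of all genes higher. The 9 dopamine genes include Pitx3, whose reporter defined this sort, so its rise was set by the design. They also include Ddc, which is on both lists. The serotonin gene that rose was Ddc, an enzyme that dopamine neurons also use, at 13.98 ± 0.41 (SD, n = 3) in Pitx3 positive and 12.45 ± 0.72 in Pitx3 negative cells. The summed serotonin genes were 13.7 to 14.4 in Pitx3 positive and 13.4 to 14.7 in Pitx3 negative cells, and 9.70 to 10.8 and 12.8 to 14.1 without Ddc, a sum made after its values were seen. Without pairs limma called 0 genes of the radial glia, cell cycle and serotonin lists (9, 8 and 8 at an unadjusted p under 0.05) and 3 dopamine genes. These 3 again include Pitx3. Without pair 2 of the Pitx3 line the paired counts were 0 for radial glia, 0 for cell cycle, 2 for serotonin genes that fell and 4 for dopamine genes, and without pair 3 they were 0, 0, 0 and 3. The cell cycle count was also 2 without Hes5 pair 3 or Nurr1 pair 2, and 5 without Nurr1 pair 3. Their part in the fall of the glial genes was not tested.

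In the Hes5 sort 0 of the 7 genes passed either limma fit, against 1.23% of all genes in the paired fit and 0.0158% without pairs. At an unadjusted p under 0.05, 4 passed paired and 1 without pairs. All 7 mean differences were above 0, with a median of 1.09 log2 against 0.04 over all genes. Gfap differed by 2.35 (SE 0.59, adjusted p = 0.0817 paired). Olig1, Aldh1l1 and Mt3 differed by 1.14, 1.17 and 1.09, with adjusted p between 0.159 and 0.204 paired. These 3 and Gfap were higher in 3 of 3 pairs, against 21.8% of all genes. Without Pitx3 pair 2, which enters through the shared spread, Gfap passed (adjusted p = 0.042). Without Hes5 pair 2, which holds the array with contradictory labels, no member passed, and Gfap, Olig1, Aldh1l1 and Mt3 differed by 2.59, 1.44, 1.49 and 1.40. With that array alone left out, in the fit without pairs, Gfap differed by 3.29 and Aqp4 by 1.51, against 0.62 with it, and no member passed. Genes of other cells moved in this sort. Summed fibroblast genes were 9.26 to 9.56 log2 in Hes5 positive and 10.5 to 12.1 in Hes5 negative cells, and 3 of 9 fell in the paired fit. Summed pluripotency and primitive endoderm genes were 11.3 to 12.3 and 12.2 to 14.5, and 1 of 12 fell, with 10 at an unadjusted p under 0.05. Their part in the differences of the glial genes, here and in the comparison of the Pitx3 and Hes5 sorts, was not tested.

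In the Nurr1 sort 0 of the 7 genes passed either limma fit, against 0.775% of all genes in the paired fit and 0.0237% without pairs. At an unadjusted p under 0.05, 1 passed paired and 0 without pairs. Olig1 differed by -1.19 (SE 0.42, adjusted p = 0.14 paired) and was lower in 3 of 3 pairs, as was Pdgfra, against 29.5% of all genes. Gfap was higher in 3 of 3 pairs, against 26.4% of all genes. The other 6 genes differed by -0.46 to 0.79. Pairs of 1 gene went opposite ways for Aqp4, Aldh1l1, Nfia and Mt3.

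The sort effects of the Pitx3 and Hes5 lines were then compared directly, as their difference. Aldh1l1 and Mt3 fell, of the 5 genes open to a test, by 3.29 (SE 0.68, adjusted p = 0.0377 paired and 0.138 without pairs) and 2.67 (SE 0.55, adjusted p = 0.0388 and 0.111). Genes lower in this difference made up 2.02% of all genes in the paired fit and 0.0474% without pairs. Nfia, Gfap and Pdgfra differed by -2.30, -3.44 and -2.26, with paired adjusted p of 0.0581, 0.0592 and 0.155. Olig1 and Aqp4 are a description, at -3.97 and -2.78. Aldh1l1 and Mt3 were both lost without Hes5 pair 1 (adjusted p = 0.0715 and 0.0695), Hes5 pair 3 (0.105 and 0.105), Nurr1 pair 2 (0.0748 and 0.0626), Pitx3 pair 2 (0.109 and 0.128) or Pitx3 pair 3 (0.149 and 0.157). Mt3 was also lost without Nurr1 pair 1 (0.0537) and Aldh1l1 without Nurr1 pair 3 (0.0503). Without Hes5 pair 2, with its contradictory labels, Nfia passed too (0.0487), as it did without pairs when that array alone was left out (0.0482). Without Pitx3 pair 1 Nfia (0.0386) and Gfap (0.0442) passed. In the Pitx3 minus Nurr1 difference limma called 0 of the 5 genes open to a test and 0% of all genes in either fit. Of these 5, 3 had an unadjusted p under 0.05 in both fits. These were Aldh1l1, Nfia and Mt3, at -1.83, -1.32 and -1.71. In the Nurr1 minus Hes5 difference it called 0 members, with 1 and 0 at an unadjusted p under 0.05, against 0% of all genes paired and 0.0079% without pairs.

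The positive fractions were compared across lines. Between Pitx3 positive and Hes5 positive cells, Aldh1l1, Nfia and Mt3 were lower, 3 of the 5 genes open to a test, against 2.27% of all genes lower. Aldh1l1 was lower by a log2 difference of -2.99 (SE 0.55, adjusted p = 0.0107 in limma's fit). Mt3 differed by -2.27 (SE 0.41, adjusted p = 0.00954) and Nfia by -1.92 (SE 0.37, adjusted p = 0.0137). Pdgfra differed by -2.82 (adjusted p = 0.0698) and Gfap by -2.64 (adjusted p = 0.234), and neither passed, although Pdgfra did without Nurr1 positive replicate 1 (0.0446) or Pitx3 positive replicate 1 (0.0388). Olig1 and Aqp4 are a description, at -4.98 and -1.69. All 5 genes open to a test lay lower without overlap, against 13% of all genes. These comparisons share the Pitx3 positive arrays with the Pitx3 sort. Without Hes5 positive replicate 1 the adjusted p was 0.0621 for Aldh1l1, 0.0743 for Nfia and 0.0553 for Mt3. Without Pitx3 positive replicate 2 it was 0.0709, 0.0785 and 0.0523. Without Pitx3 positive replicate 3 Nfia and Mt3 were lost (0.0642 and 0.0509) and Aldh1l1 was not.

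Of the further lists, 5 of 12 astrocyte, 4 of 16 oligodendrocyte lineage and 7 of 10 radial glia genes were lower in Pitx3 positive than in Hes5 positive cells. Of all genes, 2.27% were lower in this comparison. The 7 include Hes5, by whose reporter the Hes5 positive cells were sorted, so its call was set by the design. Fgfr3, Nkx2-2 and Ptprz1 differed by -3.07, -2.93 and -2.59. The counts were 2, 1 and 2 without Hes5 positive replicate 1, 2, 1 and 3 without Pitx3 positive replicate 2, 3, 1 and 3 without Pitx3 positive replicate 3, and 4, 2 and 3 without Hes5 positive replicate 3. Without Pitx3 positive replicate 1 the astrocyte count was 8.

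In Nurr1 positive against Hes5 positive cells, Olig1 was the only member to pass, against 0.316% of all genes lower. It differed by -5.62 (SE 1.15, adjusted p = 0.0493), without overlap, against 11.7% of all genes. The call sat at the threshold. It was lost without 13 of the 18 single arrays, where the adjusted p ranged over all 18 from 0.0194 to 0.245, the highest without Hes5 positive replicate 1. The other 6 differed by -0.74 to -1.78, with adjusted p of 0.174 or more. Between Pitx3 positive and Nurr1 positive cells limma called 0 of the 5 genes open to a test, with adjusted p of 0.971 or more, against 0.0158% of all genes. At an unadjusted p under 0.05, 3 passed, which were Aldh1l1, Nfia and Mt3, at -1.21, -0.86 and -0.91.

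The levels of the 7 tested genes were set against each other over the 18 arrays, which include both fractions of each line. Aldh1l1 and Nfia were most alike (Pearson's r = 0.93), then Aldh1l1 and Mt3 (r = 0.92). Olig1 and Aqp4 were least alike (r = 0.40). Among 9303 genes, the 2 most like Olig1 were Sox10 (r = 0.97) and Sox8 (r = 0.93). Neither was above background on any Nurr1 positive array, nor was Sox8 on any Pitx3 positive array. Sox10 was also not above background on replicate 1 of the Nurr1 negative, Pitx3 positive and Pitx3 negative cells. For Aqp4 the 3 most alike were Enpp2, Plscr4 and Ppp1r3c, with r of 0.93, 0.91 and 0.90. For Gfap they were Thrsp, Ramp1 and Scrg1 (0.91, 0.87 and 0.87), and for Pdgfra Mmp14, Egln3 and Vit (0.94, 0.91 and 0.91). For Aldh1l1 they were Ednrb, Vit and Slc1a3 (0.95, 0.94 and 0.93), for Nfia Lrig1, Aldh1l1 and Pxdc1 (0.96, 0.93 and 0.93), and for Mt3 Ttyh1, Aldh1l1 and Tsc22d4 (0.93, 0.92 and 0.90). The points share groups and arrays, so r is a description.

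**Figure D4:**
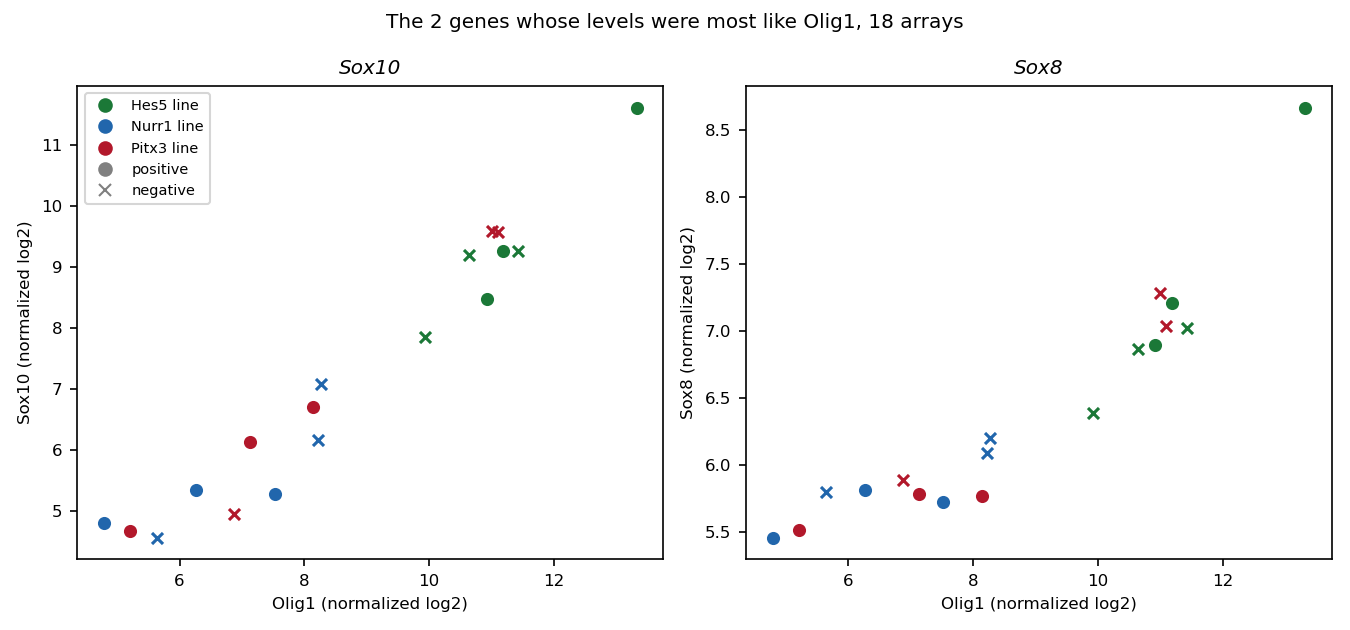
Normalized log2 intensity of Sox10 and Sox8 (y axes) against Olig1 (x axis) on 18 arrays, coloured by line, with dots for positive and crosses for negative cells. Arrays high in Olig1 are high in both, with Pearson's r of 0.97 and 0.93, and Hes5 positive replicate 1 is the highest point in each panel. Low points include arrays where Sox10 or Sox8 was not above background, among them every Nurr1 positive array.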

How the data were processed

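Per the file headers, the scanner output holds 45281 probes on 18 arrays as a linear intensity averaged over beads and not normalized. Per the file headers it also gives a detection p-value and the count of beads. The mean number of beads was 42.8 to 44.2. A second deposited table holds log2 values of 31441 genes. GenomeStudio and Partek are named in the submitters' processing notes, and their settings are not given in the sources used here. The table's 18 columns of spread between beads were not used.

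Genes were tied to probes by finding the probes whose mean intensity gives the gene's deposited values on all arrays (30329 genes, 96.5%). Of 300 shuffled value sets 0 were tied to 1 or 2 probes. Ties to 3 or 5 probes were not checked in this way. The deposited value of Aldh1l1 is the mean of 5 probes, found by a search anchored on the probes most like it. Symbols were updated through RefSeq names. Intensities were normalized with neqc in limma 3.58.1 (R 4.3.3, offset 16). Probes with a detection p-value under 0.01 on 3 arrays were kept, and each gene was read from its brightest kept probe. In a gene not above background on any array of a group, the difference is given as at least a fold, from the bright group's mean and, per dim array, the higher of its own value and the lowest value above background.

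A single model of the 6 group means served all two-sided tests (limma, lmFit then eBayes), with 12 residual degrees of freedom and Benjamini-Hochberg adjustment over 12651 genes at 0.05. Arrays of the same number within a line deviated together from their group means in 9 of 9 pairs (correlation 0.44 to 0.77). A paired fit with the number as a block (6 degrees of freedom) is therefore given beside it. Between numbers the correlation was -0.64 to 0.17. Deviations cancel within a group, which pushes these values down when arrays of the same number deviate together, so they are no independent contrast. The fits were tested on simulated data. Python 3.11.15, numpy 2.4.6, pandas 2.3.3 and matplotlib 3.10.9 served for the rest. Precision is limited by there being 3 arrays a group.

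The members, lists and tests were chosen with earlier results of these data known. Named were all members, up to 4 called genes per list and comparison by size of difference, and the 3 genes most like each member (2 for Olig1). Some genes of the lists are not reported here and are in no list count. Alternatives were no filter on dim probes, quantile normalization without background correction, the deposited log2 table, the mean of a gene's probes, each line alone, the replicate block and leaving out each array or pair, where leaving out pairs of other lines in the paired fit was added after the data were seen.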

Additional observations from a re-analysis of the deposited data

Results flagged for a closer look

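The difference between the Pitx3 and Hes5 sort effects was looked up for the lineage, astrocyte, oligodendrocyte lineage and radial glia lists, without Olig1 and Aqp4, which were chosen for their fall in Pitx3 cells. Of 42 genes 12 were lower and 0 higher in limma's paired test, against 2.02% of all genes lower. Among the lineage genes these were Aldh1l1 (-3.29) and Mt3 (-2.67) on the log2 scale. Among further astrocyte genes they were Fgfr3 (-3.09), Sox9 (-3.54) and Ttyh1 (-2.61). Among further oligodendrocyte lineage genes they were Sox8 (-1.88), Nkx2-2 (-3.51) and Nkx6-2 (-2.57). Among radial glia genes they were Nes (-3.00), Hes5 (-4.46), Notch1 (-2.65) and Hopx (-3.34). Hes5 is counted in the 12, but its own reporter defined the Hes5 sort, so its difference was set by the design. Sox8 was not above background on any Pitx3 positive array, so its value depends on the background level there. Without pairs 0 of the 42 passed, and 25 had an unadjusted p under 0.05. In the paired fit 0 of the 12 passed without Hes5 pair 3, Nurr1 pair 2, Pitx3 pair 2 or Pitx3 pair 3, and 2 passed without Hes5 pair 1. Without Hes5 pair 2, which holds the array with contradictory labels, 12 passed, with differences of -4.82 to -2.13. Without pairs and without that array alone 3 passed, with differences of -4.97 to -1.94 for the 12. No group held enough arrays for a test of single arrays that stand apart.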

How the results depend on the processing

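With the replicate block, which pairs fractions by number, counts of called genes moved from 2 to 156 in the Hes5 sort, 3 to 98 in the Nurr1 sort, 56 to 1847 in the Pitx3 sort, 1 to 0 in the Nurr1 minus Hes5 difference and 7 to 418 in the Pitx3 minus Hes5 difference. Apart from Olig1 and Aqp4 in comparisons that involve Pitx3 cells, where they are not tested, the block changed no call of a lineage gene beyond those given above. Without the filter on dim probes 30329 genes were tested, and the counts were 1, 0 and 12 in the Hes5, Nurr1 and Pitx3 sorts, 18 and 338 for Nurr1 and Pitx3 positive against Hes5 positive cells, and 1 for the Pitx3 minus Hes5 difference. With each line alone they were 0, 0 and 2 in the 3 sorts. In the Nurr1 sort and the Nurr1 minus Hes5 difference the quantile normalization and the deposited table gave 0. The deposited table gave 350 (94 higher and 256 lower, against 259 and 287) for Pitx3 against Hes5 positive cells and 0 for the Pitx3 minus Hes5 difference, with the median of all genes shifted by -0.18 in the first. Apart from these shown constructions the cause was not tested.

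Leaving out 1 array, counts ranged from 1 to 97, 0 to 9 and 0 to 931 in the Hes5, Nurr1 and Pitx3 sorts, from 12 to 335, 1 to 3 and 78 to 1529 for Nurr1 against Hes5, Pitx3 against Nurr1 and Pitx3 against Hes5 positive cells, and from 0 to 2, 0 to 0 and 0 to 139 in the differences of Nurr1 minus Hes5, Pitx3 minus Nurr1 and Pitx3 minus Hes5. Leaving out 1 pair in the blocked fit, they ranged from 3 to 1128, 0 to 1098 and 15 to 2966 in the sorts and from 0 to 90, 0 to 0 and 0 to 659 in the differences.

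Of the lineage genes, no call changed with the deposited table or the quantile normalization. Nfia passed in the Pitx3 sort with the mean of its probes (adjusted p = 0.0493), and without the filter Olig1 was lost in Nurr1 against Hes5 positive cells (adjusted p = 0.134). Directions turned only on leaving out an array or pair, in 27 values, none of them a call. Over all fits that leave one out, the log2 difference in the Hes5 sort ranged from -0.12 to 1.51 for Aqp4 (blocked -0.078 to 1.003) and -0.31 to 0.87 for Pdgfra (blocked -0.48 to 1.13), and blocked from -0.087 to 0.82 for Nfia. In the Nurr1 sort it ranged from -0.60 to 1.10 for Aqp4 (blocked -0.25 to 0.43), -0.63 to 1.72 for Gfap, -1.24 to 0.50 for Pdgfra, -0.83 to 0.27 for Aldh1l1 (blocked -0.71 to 0.094) and -0.34 to 0.44 for Mt3 (blocked -0.35 to 0.59). In the Pitx3 sort it ranged from -2.05 to 0.31 for Gfap. In Pitx3 against Nurr1 positive cells it ranged from -0.064 to 1.45 for Olig1 and -2.25 to 0.10 for Gfap, and in Nurr1 against Hes5 positive cells from -1.44 to 0.26 for Aqp4. In the Nurr1 minus Hes5 difference it ranged from -1.41 to 0.48 for Aqp4 (blocked -0.90 to 0.18) and -1.66 to 0.077 for Pdgfra (blocked -1.59 to 0.023).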
